A study of Mus musculus with 12 samples.

Results

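Tissue kallikreins are described here through 5 genes, Klk1, Klk1b1, Klk1b11, Klk1b24 and Klk1b27, among the 34327 genes of a TPM table of mouse bone marrow–derived macrophages (BMDMs). The genes were chosen by their names and by a value in these data: Klk1b11 had been seen far higher in gels than on tissue culture (TC) plates when IL-4 was present. That difference, and the effect of IL-4 against untreated cells within each culture, are therefore given as a description with no test. Differences between the gels were tested, and use no plate library. Without IL-4 the means compared come from none of the libraries behind the choice. The filter and the estimate of the spread, however, also rest on the gel libraries with IL-4. With IL-4, and for the difference of the IL-4 effects, they share the gel libraries with IL-4 and are not independent of the choice. All BMDMs were wild-type cells of C57BL/6J mice (C57BL/6 in the strain label), differentiated from bone marrow in L929-cell conditioned medium and left untreated or stimulated with IL-4 at 20 ng/ml, with 24 hours given on every label. They were embedded in floating gels of rat tail collagen I at 2 mg/ml (low-collagen gels) or 7 mg/ml (high-collagen gels), or kept on TC plates. Each of the 6 conditions had 2 libraries, 12 in all, and nothing in the labels says whether the 2 came from separate mice, so p-values measure only the spread between these libraries.

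Tissue kallikreins are secreted serine proteases with trypsin- or chymotrypsin-like cleavage. Klk1, true tissue kallikrein, releases kinins from kininogen and is abundant in kidney and salivary gland. In mice the family was enlarged by tandem duplication, and the resulting Klk1b genes are best known from the submandibular gland, where Klk1b9 binds epidermal growth factor. The copies resemble each other closely, so short reads from the RNA of one gene may fit the transcripts of another.

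In the GENCODE annotation of GRCm38, all of these genes lay in a single cluster on the plus strand of chromosome 7, which held 14 protein-coding genes and 10 Klk1b pseudogenes between base 43942662 and base 44229618, a span of 287.0 kb. Klk1b1 (ENSMUSG00000063133) was at chr7:43966751-43971318 and Klk1b11 (ENSMUSG00000044485) at chr7:43995877-43999875, with Klk1b9 and a pseudogene between them. Klk1b27 (ENSMUSG00000063177) was at chr7:44052290-44056712, Klk1b24 (ENSMUSG00000063713) at chr7:44188236-44192455 and Klk1 (ENSMUSG00000063903) at chr7:44225360-44229618, the end of the cluster. Each of the 5 had 5 exons in its longest coding transcript and between 783 and 789 coding bases.

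The stretch of coding sequence in which the 5 genes differed most from Klk1b11 is shown first, because such bases allow a read to be given to 1 gene. It is a window of 60 bases in exon 4, at chr7:43999183-43999242 in Klk1b11, at chr7:43970631-43970690 in Klk1b1, at chr7:44056028-44056087 in Klk1b27, at chr7:44191767-44191826 in Klk1b24 and at chr7:44228934-44228993 in Klk1. Capitals mark bases that differ from Klk1b11.
Klk1b11: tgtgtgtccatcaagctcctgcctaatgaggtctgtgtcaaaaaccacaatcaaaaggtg
Klk1b1: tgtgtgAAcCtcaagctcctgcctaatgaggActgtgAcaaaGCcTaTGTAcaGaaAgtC
Klk1b27: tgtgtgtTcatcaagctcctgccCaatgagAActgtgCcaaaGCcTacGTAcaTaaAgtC
Klk1b24: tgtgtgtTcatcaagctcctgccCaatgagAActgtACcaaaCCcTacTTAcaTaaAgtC
Klk1: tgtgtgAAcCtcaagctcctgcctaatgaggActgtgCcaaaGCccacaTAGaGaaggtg
Of these 60 bases, 15 differed from Klk1b11 in Klk1b1, 14 in Klk1b27, 15 in Klk1b24 and 11 in Klk1, and the differences gathered toward the 3′ end of the window.

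The window in which they were most alike was in exon 3 and is shown because a read from it may fit more than 1 copy. It lay at chr7:43998958-43999017 in Klk1b11, at chr7:43970406-43970465 in Klk1b1, at chr7:44055804-44055863 in Klk1b27, at chr7:44191543-44191602 in Klk1b24 and at chr7:44228709-44228768 in Klk1.
Klk1b11: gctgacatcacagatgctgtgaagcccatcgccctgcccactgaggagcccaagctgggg
Klk1b1: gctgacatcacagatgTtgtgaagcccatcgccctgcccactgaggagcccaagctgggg
Klk1b27: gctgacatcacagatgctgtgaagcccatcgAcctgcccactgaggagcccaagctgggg
Klk1b24: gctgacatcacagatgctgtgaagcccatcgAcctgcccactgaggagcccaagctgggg
Klk1: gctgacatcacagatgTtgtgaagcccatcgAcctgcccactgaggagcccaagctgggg
Here 1 base differed from Klk1b11 in Klk1b1, 1 in Klk1b27, 1 in Klk1b24 and 2 in Klk1.

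Across the whole coding sequence, 90.9% of aligned bases were identical between Klk1b11 and Klk1b24, 90.8% between Klk1b11 and Klk1b27, 86.6% between Klk1b11 and Klk1b1 and 84.7% between Klk1b11 and Klk1. Identity with the other 9 Klk1b genes was between 81.9% (Klk1b16) and 90.5% (Klk1b21). Sharing was also counted in words of 31 bases, the default word length of kallisto, the program that assigned the reads. Of the 833 words in the Klk1b11 transcript, 267 (32.1%) also occurred in a transcript of another gene, and 566 were its own. The share was 34.9% for Klk1b1, 40.5% for Klk1, 41.7% for Klk1b27 and 58.4% for Klk1b24. No shared word was found outside the cluster. Klk1b24 had 113 words in common with Klk1b11, and Klk1 had 96, Klk1b1 88 and Klk1b27 77. In words of 38 bases, the length of the reads, Klk1 had 75, Klk1b1 67, Klk1b24 64 and Klk1b27 36.

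**Figure D1:**
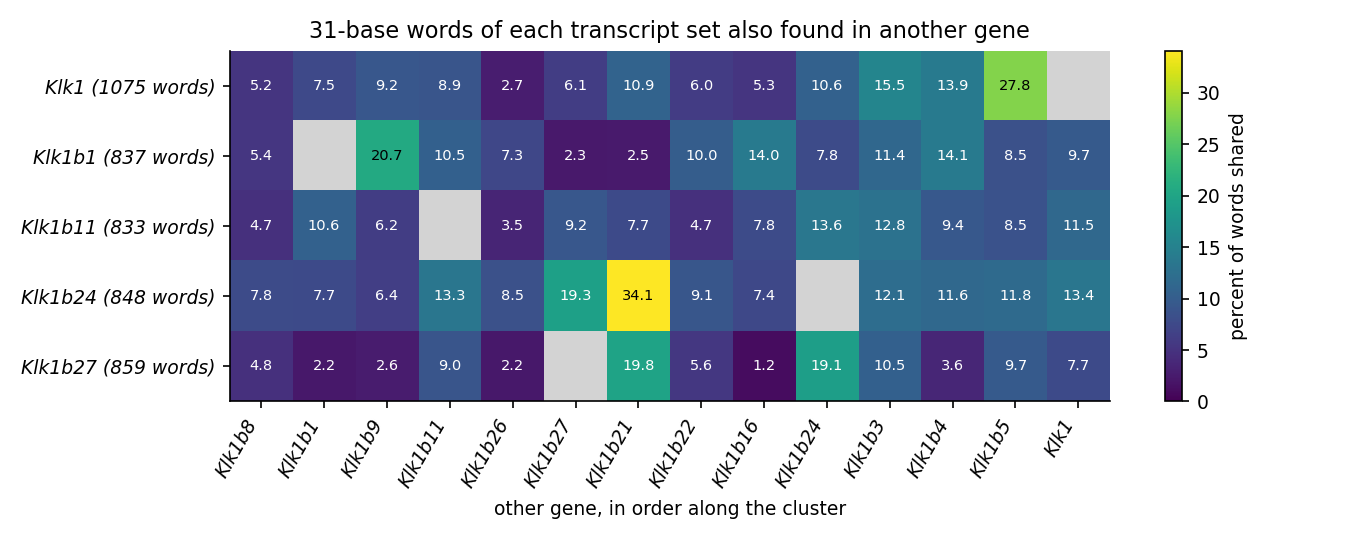
Percent of the 31-base words of each of the 5 genes (rows, with the number of words) that also occur in the transcripts of each of the 14 coding genes of the cluster (columns, in genomic order), with grey for the gene itself. The highest share is that of Klk1b24 with Klk1b21 (34.1%), and Klk1b11 shares no more than 13.6% of its words with any gene.

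The levels below are TPM, the share of each gene's transcripts among all transcripts of a library, scaled to a fixed total by the authors. Klk1b11 had the highest level of the 5 genes in every library. It was listed at 4.48 and 5.67 TPM in the 2 libraries of untreated TC plates and at 11.2 and 10.6 TPM on plates with IL-4. In untreated low-collagen gels it stood at 55.5 and 52.1 TPM, and in untreated high-collagen gels at 55.9 and 55.6 TPM. With IL-4 its level was 256 and 282 TPM in the gels of low and 347 and 304 TPM in those of high collagen. No range overlapped that of another condition, but the 2 untreated gels lay next to each other. By its mean, Klk1b11 ranked 9676th of the 34327 genes on untreated plates and 455th in high-collagen gels with IL-4.

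Klk1b1, a tandem copy of Klk1, followed at far lower levels. It was listed at 0 and 0.217 TPM on untreated plates and at 0.446 and 0.753 TPM on plates with IL-4. In low-collagen gels it was at 2.84 TPM in both untreated libraries and at 5.52 and 7.38 TPM with IL-4. In high-collagen gels it was at 5.44 and 6.21 TPM untreated and at 7.05 and 7.38 TPM with IL-4. Every gel library was above every plate library, and the range of low-collagen gels with IL-4 overlapped those of both high-collagen conditions.

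Klk1b27, another copy of the cluster, had the third level. It was listed at 0 and 0.210 TPM on untreated plates and at 0.216 and 0.238 TPM on plates with IL-4. It was at 1.77 and 2.54 TPM in untreated low-collagen gels and at 3.19 and 2.80 TPM in the same gels with IL-4. In high-collagen gels it was at 3.09 and 2.79 TPM untreated and at 6.37 and 4.76 TPM with IL-4. The libraries of high-collagen gels with IL-4 were above all others, while the ranges of untreated high-collagen gels and of low-collagen gels with IL-4 overlapped.

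Klk1 itself did not reach 1 TPM in any library. It was listed at 0 in all 4 plate libraries and in both untreated high-collagen gels. It was at 0.241 and 0.223 TPM in untreated low-collagen gels, at 0.217 and 0.143 TPM when IL-4 was added to these gels, and at 0.239 and 0.673 TPM in high-collagen gels with IL-4. Klk1b24 was listed at 0 in all 12 libraries, including those in which Klk1b11 was highest. TPM keep no depth, so how many reads a value rests on is unknown, and a 0 may be a failed division of shared reads.

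**Figure D2:**
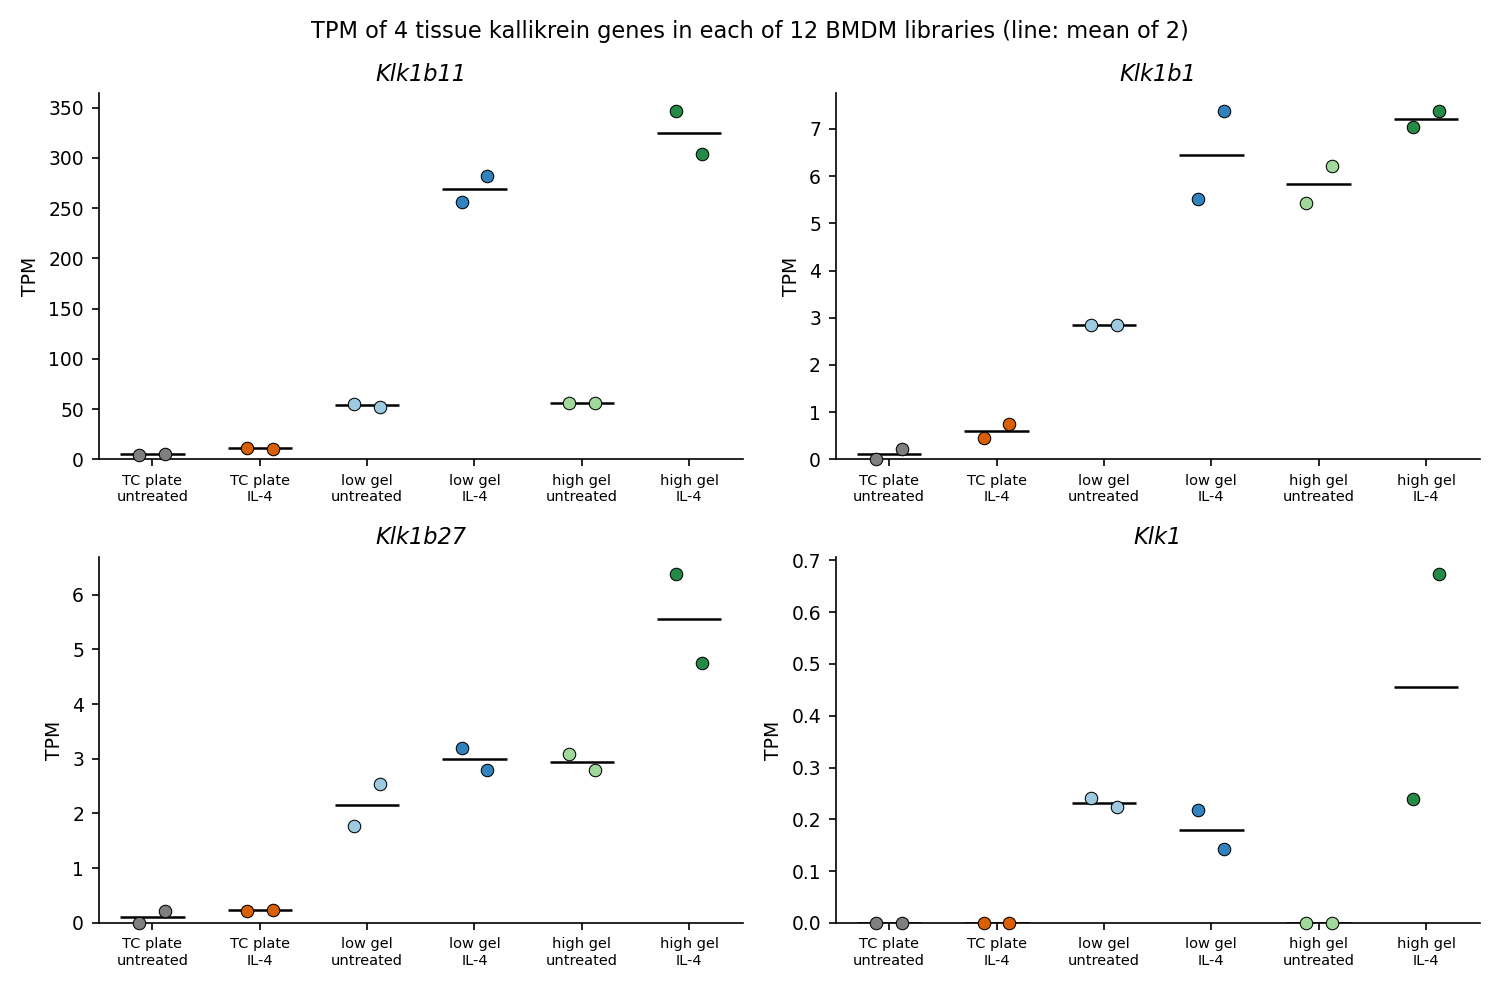
TPM (y axes from 0, a different scale in each panel) of Klk1b11, Klk1b1, Klk1b27 and Klk1 in each library of the 6 conditions, with points for libraries and lines for the mean of 2. Klk1b11 lies between 4.48 and 11.2 TPM on plates, between 52.1 and 55.9 TPM in untreated gels and between 256 and 347 TPM in gels with IL-4.

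Klk1b11 held nearly all of the family's signal. The TPM of the 14 coding genes summed to between 4.48 and 362 per library, of which Klk1b11 was 85.8% to 100%. Its share was lowest in untreated high-collagen gels, at 86.4% and 85.8%, and between 95.5% and 96.2% in the 4 gel libraries with IL-4. The 9 remaining Klk1b genes reached 1 TPM in no library. The highest was Klk1b9, at 0.938 TPM in a low-collagen gel with IL-4, and Klk1b3, Klk1b4 and Klk1b21 were listed at 0 in all 12. The 10 pseudogenes summed to at most 0.945 TPM in a library.

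The levels of the minor copies did not keep a fixed ratio to Klk1b11. Klk1b1 was 9.72% and 11.2% of the Klk1b11 level in untreated high-collagen gels, 5.12% to 5.44% in untreated low-collagen gels and 2.03% to 2.61% in the gels with IL-4. Klk1b27 was 5.03% to 5.53% of Klk1b11 in untreated high-collagen gels, 3.18% to 4.87% in untreated low-collagen gels, 0.990% to 1.25% with IL-4 at low collagen and 1.57% to 1.84% with IL-4 at high collagen. The part of reads shared with Klk1b11 in the values of Klk1b1 and Klk1b27 was not tested. Klk1b24, with 113 of the 31-base words of Klk1b11 in its own transcript, was listed at 0 and Klk1, with 96, at no more than 0.673 TPM beside Klk1b11 levels of up to 347 TPM. Such low values may also come from a failed division of shared reads, which was not tested.

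**Figure D3:**
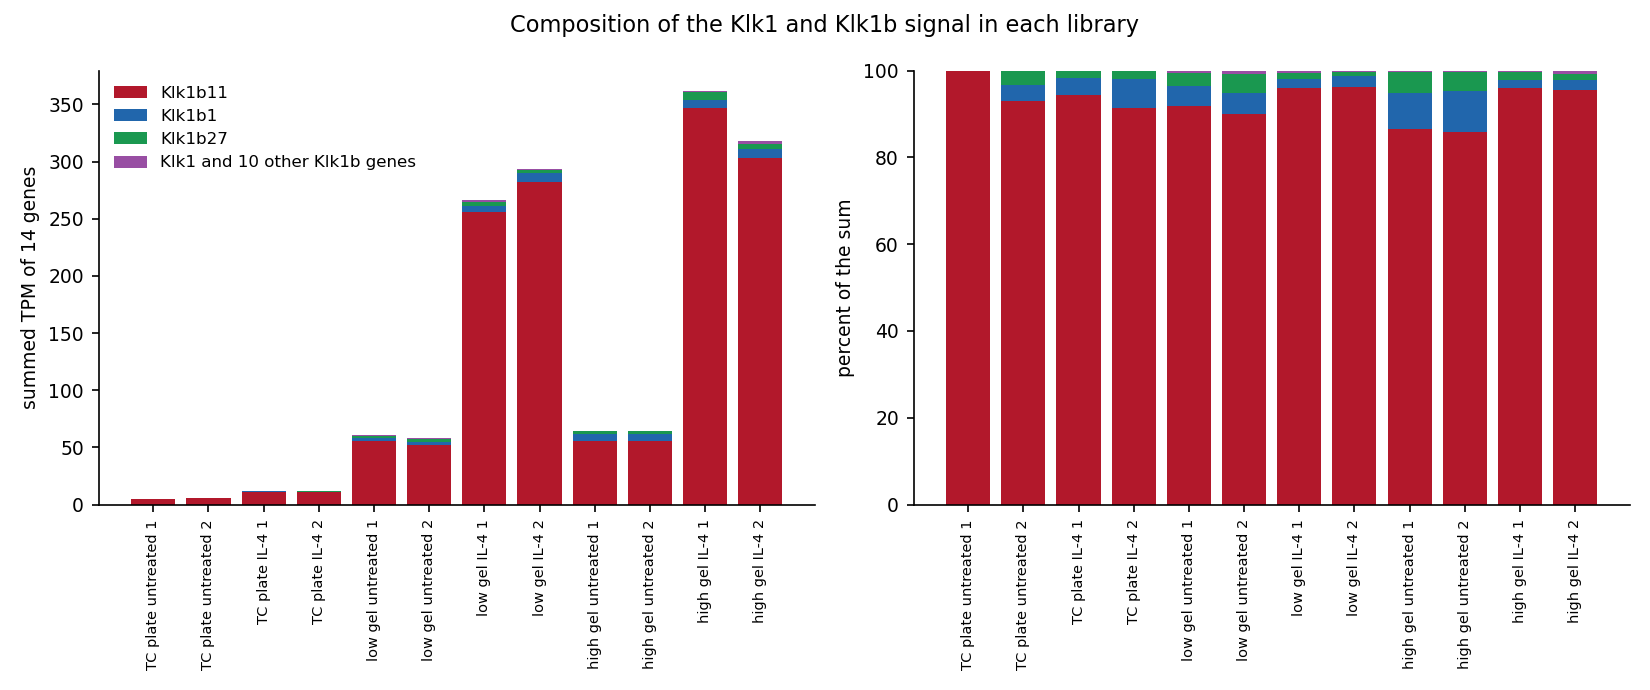
Summed TPM of the 14 coding Klk1 and Klk1b genes in each of the 12 libraries (left, y axis from 0) and the percent of that sum held by each gene or group (right), as stacked bars. Klk1b11 makes up 85.8% to 100% of every bar, and Klk1b1 at most 9.58%.

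Gels were then compared with TC plates without IL-4, with means from libraries that the choice of the genes had not used. The comparison used limma on log2(TPM + 1) in a fit of all 12 libraries and the 11865 genes with a mean of at least 1 TPM. The filter and the spread thus also rest on the libraries with IL-4. Klk1b11 was chosen for the same contrast with IL-4, so the comparison is not fully independent of the choice. A gene was called at a Benjamini-Hochberg adjusted p-value under 0.2, the threshold of the study. Klk1b11, which was above 1 TPM in every library, was higher in untreated low-collagen gels than on untreated plates by 3.18 ± 0.10 (SE) on the log2(TPM + 1) scale, with an adjusted p of 2.8e-08, and its mean TPM was 10.6 times that on plates. In untreated high-collagen gels the difference was 3.23 ± 0.10 (SE), with an adjusted p of 2.0e-08 and a ratio of means of 10.99. Calls were common in these comparisons, as 28.5% of genes were called higher and 44.3% lower in low-collagen gels, and 28.0% higher and 45.5% lower in high-collagen gels. When libraries were brought to 1 scale by median ratios, the 3383 higher and 5257 lower calls of low-collagen gels became 4397 and 4270, and the 3318 and 5403 calls of high-collagen gels became 4392 and 4352. The Klk1b11 difference was then 3.32 and 3.39. By size, the difference of Klk1b11 was the 30th largest rise of 11865 in low-collagen gels and the 29th in high-collagen gels.

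Klk1b1 and Klk1b27 passed the filter only through their gel libraries, so they had to differ from plates and their values are a description. Klk1b1 differed from untreated plates by 1.80 on the log2(TPM + 1) scale where the gel was of low collagen and by 2.63 where it was of high collagen. Klk1b27 differed by 1.51 and 1.84. With a pseudocount of 0.1 in place of 1 these became 4.05 and 5.05 for Klk1b1 and 3.65 and 4.11 for Klk1b27. Klk1 and Klk1b24 did not pass the filter and were not tested. The RNA was taken from whole cultures, so fewer cells of a type and less RNA per cell cannot be told apart.

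The values with IL-4 are those the choice rested on and are given with no test. The mean TPM of Klk1b11 with IL-4 was 24.7 times the plate level in low-collagen gels and 29.8 times in high-collagen gels, or 4.50 and 4.77 on the log2(TPM + 1) scale. Against untreated cells, the mean with IL-4 was 2.15 times as high on plates, 5.00 times in low-collagen gels and 5.83 times in high-collagen gels. For Klk1b1 the corresponding ratio was 2.27 in low-collagen gels and 1.24 in high-collagen gels, and for Klk1b27 it was 1.39 and 1.89. The order of the gels was thus opposite in Klk1b1 and Klk1b27. For plates no ratio is given for these copies, whose untreated libraries include a 0.

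High-collagen gels were compared with low-collagen gels, which by the study also differ in stiffness and pore size. Collagen density and these properties change together and cannot be told apart here. The fit used the 8 gel libraries and 11852 genes. Klk1b1, Klk1b11 and Klk1b27 stood above 1 TPM in all 8. Without IL-4, 3.23% of genes were called higher and 4.79% lower at high collagen. Of the 3 kallikreins, 1 was called, Klk1b1. Median-ratio scaling turned the 383 higher and 568 lower calls over all genes into 455 and 427, and Klk1b1 was still called. Klk1b1 was 2.05 times as high in the mean and differed by 0.83 ± 0.17 (SE) on the log2(TPM + 1) scale, with an adjusted p of 0.074 by limma. The call rested on few libraries, since the adjusted p rose to 0.21 without replicate 2 of the low-collagen gels or without replicate 1 of the high-collagen gels, and to 0.27 without replicate 2 of the high-collagen gels. Klk1b11 differed by 0.05 ± 0.09 (SE, adjusted p of 0.82) and Klk1b27 by 0.33 ± 0.21 (SE, adjusted p of 0.49), and neither was called.

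With IL-4, 14.1% of genes were called higher and 6.99% lower in high-collagen gels, and Klk1b11 and Klk1b27 were called higher. Klk1b11 was 1.21 times as high in the mean, a difference of 0.27 ± 0.09 (SE) on the log2(TPM + 1) scale with an adjusted p of 0.12 by limma. Under median-ratio scaling the difference was 0.19 and the adjusted p 0.35, and this scaling changed the calls over all genes from 1672 higher and 828 lower to 1218 higher and 1350 lower. Klk1b27 was 1.86 times as high, a difference of 0.71 ± 0.21 (SE) with an adjusted p of 0.099. Klk1b1 differed by 0.15 ± 0.17 (SE, adjusted p of 0.63) and was not called. In the same comparison Cela1, a pancreatic elastase gene fixed here as a gland marker, was higher by 0.44 ± 0.16 (SE, adjusted p of 0.16, and 0.25 under median-ratio scaling). S100a8, a neutrophil marker, was lower at high collagen by -0.79 ± 0.23 (SE, adjusted p of 0.10) with IL-4 and by -0.84 ± 0.23 (SE, adjusted p of 0.15) without. S100a9, the other neutrophil marker tested, was not called. It differed by -0.06 ± 0.26 (SE, adjusted p of 0.91 by limma) with IL-4 and by -0.55 ± 0.26 (SE, adjusted p of 0.36) without. Below the filter, Ngp, Camp and Elane had higher means at high collagen without IL-4, while with IL-4 Ngp and Camp were lower and Elane higher. The part of cells with any of these markers in the kallikrein differences was not tested.

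Both calls with IL-4 depended on single libraries. They also compare gel libraries that the choice of the genes had used. Without replicate 1 or replicate 2 of the low-collagen gels, the adjusted p of Klk1b11 was 0.35 and 0.21, and without replicate 1 of the high-collagen gels it was 0.37. For Klk1b27 the same omissions gave 0.20, 0.33 and 0.31. Only without replicate 2 of the high-collagen gels were the calls still made, at 0.17 for Klk1b11 and 0.18 for Klk1b27. The smallest p that exact permutation of 2 and 2 libraries allows is 0.33, so no such test was used.

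The interaction asks whether the IL-4 effect differed between high- and low-collagen gels. It was called for 0 of the 3 kallikreins by limma, against 0.363% of all genes, and 1 of the 3 had an unadjusted p under 0.05. The estimate was -0.68 ± 0.24 (SE, adjusted p of 0.44) for Klk1b1, 0.22 ± 0.12 (SE, adjusted p of 0.59) for Klk1b11 and 0.37 ± 0.29 (SE, adjusted p of 0.70) for Klk1b27. None of the differing ratios given above for the gels thus passed the test.

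**Figure D4:**
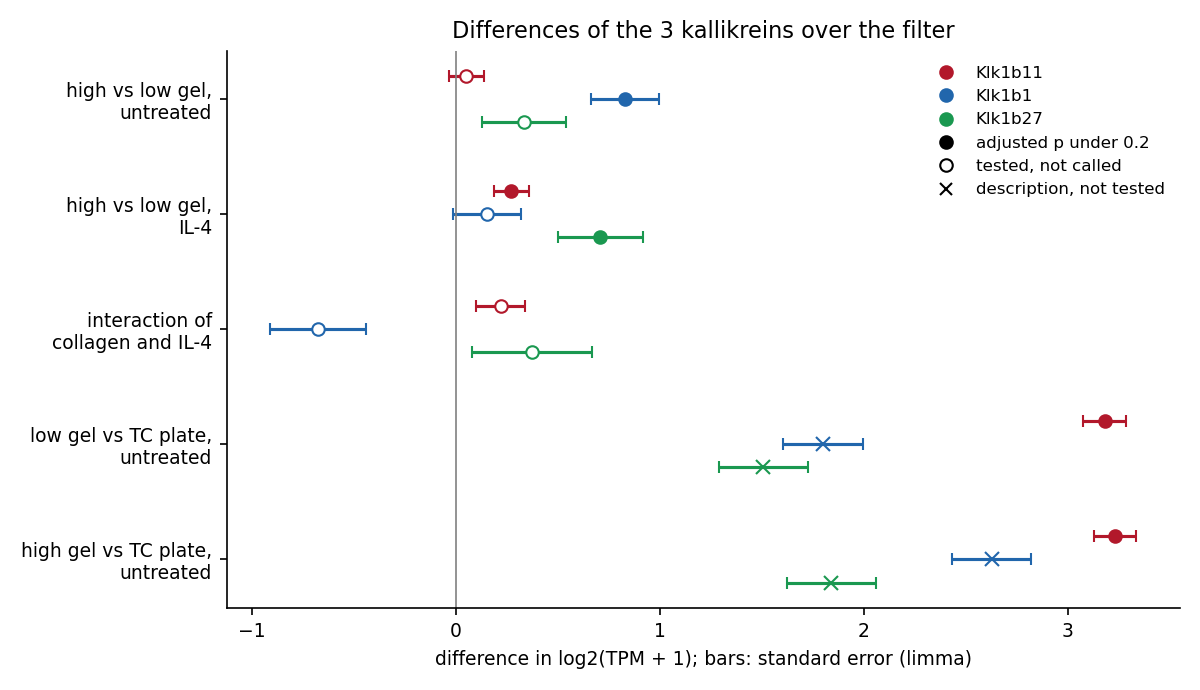
Differences in log2(TPM + 1) (x axis) of Klk1b11, Klk1b1 and Klk1b27 in 5 comparisons, with bars for the standard error from limma, filled circles for an adjusted p under 0.2, open circles for tested and not called, and crosses for Klk1b1 and Klk1b27 against plates, a description with no test because they passed the filter only through the gels. The difference of Klk1b11 from untreated plates is 3.18 and 3.23, and between the gels the 3 genes differ by 0.05 to 0.83.

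The bases before the start of transcription are shown for the 3 genes that reached 1 TPM and for Klk1b24, which was listed at 0. They are the last 150 bases upstream of the RefSeq start on GRCm38.p6, on the plus strand, at chr7:43995727-43995876 for Klk1b11, chr7:43966601-43966750 for Klk1b1, chr7:44052140-44052289 for Klk1b27 and chr7:44188086-44188235 for Klk1b24. The TATA box itself, TATAAA on the sense strand, was found in the 250 bases upstream of 0 of the 14 coding genes and in 7.59% of all RefSeq promoters. Capitals mark TTTAAA on the sense strand, a variant of it that was looked for after these sequences had been seen.
Klk1b11: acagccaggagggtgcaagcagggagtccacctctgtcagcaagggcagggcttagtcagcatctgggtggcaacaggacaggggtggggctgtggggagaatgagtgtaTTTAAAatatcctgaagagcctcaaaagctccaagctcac
Klk1b1: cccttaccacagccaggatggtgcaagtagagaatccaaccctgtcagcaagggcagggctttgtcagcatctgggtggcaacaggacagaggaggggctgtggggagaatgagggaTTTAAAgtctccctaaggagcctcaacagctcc
Klk1b27: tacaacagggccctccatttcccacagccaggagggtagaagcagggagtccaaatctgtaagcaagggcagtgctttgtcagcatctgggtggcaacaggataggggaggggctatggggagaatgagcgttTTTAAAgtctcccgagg
Klk1b24: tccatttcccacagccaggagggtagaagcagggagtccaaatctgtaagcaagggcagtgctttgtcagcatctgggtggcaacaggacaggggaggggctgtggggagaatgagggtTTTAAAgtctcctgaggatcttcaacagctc
TTTAAA began 40 bases before the start of Klk1b11, 33 before that of Klk1b1, 17 before that of Klk1b27 and 31 before that of Klk1b24. In 250 bases upstream it was found in 12 of the 14 coding genes, all except Klk1 and Klk1b21, and in 12.1% of all 32851 RefSeq promoters. Over 250 bases, Klk1b11 had 87.2% of aligned bases in common with Klk1b27, 85.0% with Klk1b1, 81.2% with Klk1b24 and 55.1% with Klk1.

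Other motifs were searched in the same 250 bases on both strands. TTCNNNNGAA, the form of the STAT palindrome that STAT6, the factor downstream of the IL-4 receptor, is known to bind, was found in 5.85% of all promoters and in Klk1b1, Klk1b3 and Klk1b16 among the 14 genes, beginning 211 bases before the start of Klk1b1. It was not found in this window of Klk1b11. TTCNNNGAA (7.02% of all promoters) and the AP-1 site TGANTCA (6.75%) were found in none of the 14, and GAGGAA, a core bound by PU.1 (23.3%), only in Klk1b8. These letters describe the window and no more.

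The genes whose profile was most like that of Klk1b11 were taken by Pearson's r of log2(TPM + 1) over the 12 libraries, among the 11865 genes with a mean of at least 1 TPM. They were Lamp1, a membrane protein of lysosomes (r = 0.995), Cd83, an activation marker of antigen-presenting cells (0.993), Sil1, a co-chaperone of the endoplasmic reticulum (0.992), S100a1, a calcium-binding protein (0.986), and Glb1, a lysosomal beta-galactosidase (0.986). The libraries share their condition, so these values rank genes and are not tested. The mean TPM in the high-collagen IL-4 condition, relative to untreated plates, was 64.1 times as high for Klk1b11, 11.1 times for Cd83, 3.44 times for S100a1, 2.33 times for Sil1, 2.09 times for Lamp1 and 1.66 times for Glb1. For Klk1b1 the nearest gene was H2-Ab1, a chain of an MHC class II molecule (0.984), and for Klk1b27 it was Olfr1033 (0.984), while r between Klk1b1 and Klk1b27 was 0.960 and r of Klk1b11 was 0.943 with Klk1b1 and 0.940 with Klk1b27.

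**Figure D5:**
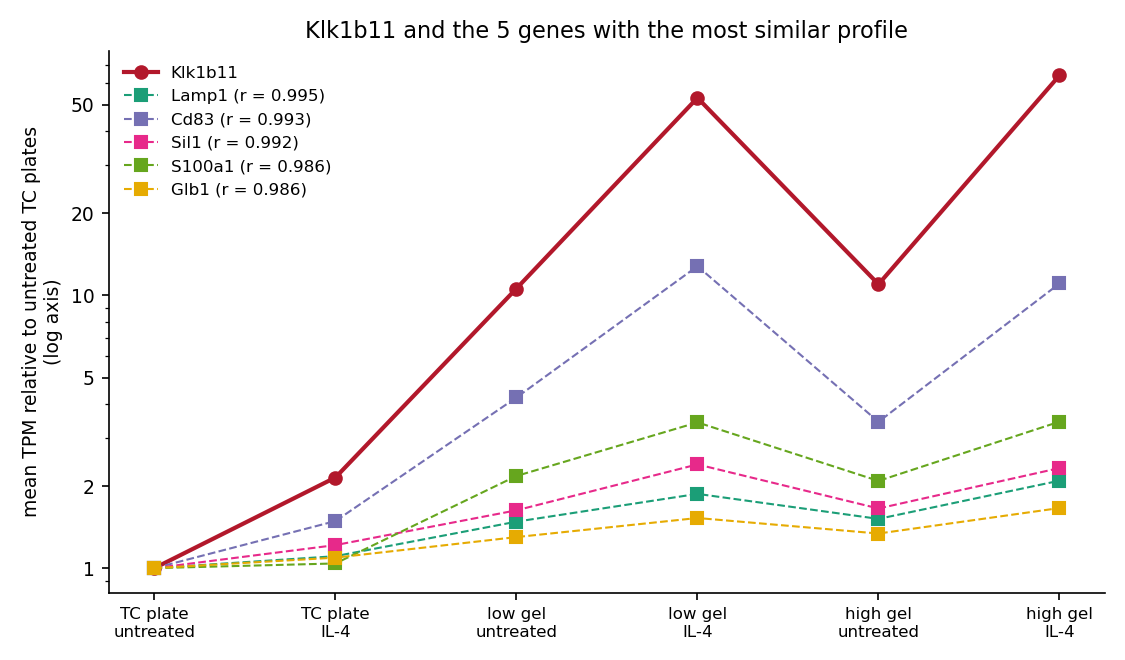
Mean TPM in the 6 conditions relative to untreated TC plates (y axis, log scale) of Klk1b11 and of the 5 genes with the highest Pearson r to it over 12 libraries, joined by lines. All 6 profiles are higher in gels with IL-4 than in untreated gels, and Klk1b11 reaches 64.1 times the plate level where the next gene, Cd83, reaches 11.1 times.

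Of the kinin system, in which Klk1 acts, the parts upstream and at the receptor were nearly silent. The precursors and plasma enzymes Kng1, Kng2, Klkb1 and F12 summed to at most 0.676 TPM in a library. Of the kinin receptors, Bdkrb1 was listed at 0 everywhere and Bdkrb2 reached at most 0.0490 TPM, and the inhibitors Serping1 and Serpina5 summed to at most 0.0979 TPM. Of 13 peptidases that can cleave kinins, 5 had a mean of at least 1 TPM over the 12 libraries, and so 5 of the 21 genes of the list were tested.

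Of these 5 peptidases, 1 was higher and 4 were lower in untreated low-collagen gels than on plates, and the same counts held in high-collagen gels. Over all genes, 28.5% were called higher and 44.3% lower at low collagen, and 28.0% and 45.5% at high collagen. Prcp, a lysosomal carboxypeptidase, was higher on the log2(TPM + 1) scale by 1.25 ± 0.07 (SE) at low collagen and by 1.30 ± 0.07 at high collagen. The carboxypeptidase Cpd differed by -1.93 ± 0.12 and -1.53 ± 0.12 (SE), and Xpnpep1, Prep and Ece1 by -0.93 to -1.39. The median of the 5 was -1.09 in low-collagen gels and -1.22 in high-collagen gels, where the median of all genes tested was -0.13 and -0.16. Rescaling raised the median of all genes by 0.15 and 0.17 without turning any of these directions. Between the gels with IL-4, Cpd alone of the 5 was called, higher in high-collagen gels by 0.71 ± 0.14 (SE, adjusted p of 0.032 by limma), where 14.1% of all genes were called higher and 6.99% lower, and without IL-4 or in the interaction limma called 0 of 5, with 1 (Cpd) and 0 at an unadjusted p under 0.05, where 3.23% of all genes were called higher and 4.79% lower without IL-4 and 0.363% in the interaction. Under median-ratio scaling Cpd was also called without IL-4 (adjusted p of 0.13) and Xpnpep1 was called lower with IL-4 (adjusted p of 0.19).

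The more distant kallikreins Klk4 to Klk15 (12 genes) summed to at most 0.345 TPM in a library, and 7 of them were listed at 0 throughout. Of the genes whose products have been reported as targets of kallikreins, Fn1 and Egf had a mean of at least 1 TPM, and Plg was listed at 0 in all libraries. Fn1, which encodes the matrix protein fibronectin, had mean levels of 18.9 and 182 TPM on plates without and with IL-4, against 22.96 and 577 TPM at low collagen and 55.2 and 363 TPM at high collagen. Untreated gels were above untreated plates by 0.27 ± 0.11 (SE, adjusted p of 0.061) at low and 1.50 ± 0.11 (SE, adjusted p of 2.1e-06) at high collagen. High-collagen gels were higher in Fn1 than low-collagen gels without IL-4, by 1.24 ± 0.11 (SE, adjusted p of 0.0076), and lower with IL-4, by -0.67 ± 0.11 (SE, adjusted p of 0.022). Egf, a growth factor, did not pass the test in any of the 5 comparisons.

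The libraries were macrophage RNA by their markers, with 9 of 9 macrophage markers above a mean of 1 TPM, led by Lyz2. The glands and kidney, where kallikreins are abundant, were checked through 9 markers. Of these, 1 had a mean of at least 1 TPM, the elastase gene Cela1, Epcam reached at most 0.0832 TPM, Krt8 0.163 TPM and Krt18 0.283 TPM, and Smr3a, Aqp2 and Umod were listed at 0 in all libraries. The amylase gene Amy1 reached 1.07 TPM, with means of 0.0449 TPM on untreated plates and 0.694 and 0.787 TPM in untreated low- and high-collagen gels, and Amy2a5 had means of 0.0446, 0.322 and 0.169 TPM. With IL-4, the means of Amy1 were 0.210, 0.207 and 0.263 TPM and those of Amy2a5 0.188, 0.0707 and 0.0394 TPM on plates and in the gels of low and high collagen. The 9 summed to 5.49 to 8.08 TPM on plates and 9.29 to 23.1 TPM in gels, nearly all of it Cela1, which was higher in untreated gels than on plates by 1.38 ± 0.18 (SE) at low and 1.44 ± 0.18 at high collagen. Of 7 neutrophil markers, S100a8 and S100a9 had a mean of at least 1 TPM and Ly6g was listed at 0, and the 7 summed to 4.38 to 9.43 TPM on plates, 15.2 to 31.4 TPM in untreated gels and 13.4 to 21.5 TPM in gels with IL-4. Markers of mast cells and basophils (6 genes), eosinophils (5 genes) and fibroblasts (6 genes) had no gene at a mean of 1 TPM. The part of Cela1- or S100a8-expressing cells in the level of Klk1b11 was not tested.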

How the data were processed

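RNA-seq of BMDMs was analysed from 12 libraries, 2 in each of 6 conditions taken from the sample labels. The authors prepared TruSeq stranded mRNA libraries, sequenced paired reads of 38 bases, estimated transcript abundance with kallisto 0.46.1 (per the labels) on GRCm38 transcripts of Ensembl, and deposited 1 table of TPM per gene, scaled to nearly the same total (999658 to 999723) in every library. How transcripts were joined into genes is not given in the sources used here. TPM keep no sequencing depth, so no counting interval was computed. Kallisto divides shared reads among similar transcripts.

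Of 34456 lines, 129 that repeated a symbol with its values were collapsed. The correlation between replicates was 0.980 to 0.985 and 0 pairs of libraries were identical. Values were tested as log2(TPM + 1) with limma 3.58.1 in R 4.3.3, with 1 mean per condition, a mean-variance trend, a filter at a mean of 1 TPM and Benjamini-Hochberg adjustment over all genes tested, and the fit was checked on simulated data. Shared words, identity and motifs were computed with python 3.11.15 from GENCODE M21 transcripts (GRCm38, a later annotation than that of the authors) and RefSeq promoters (all 14 genes matched). The named genes are the 5 kallikreins, members of fixed lists, and the genes most like Klk1b11 (5), Klk1b1 (1) and Klk1b27 (1). List members were tested only at a mean of at least 1 TPM. The genes and lists were chosen with earlier results of these data known.

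Results were recomputed without a filter, with a filter at 5 TPM, with a pseudocount of 0.1, no trend, median-ratio rescaling, the replicate number as a block, other libraries in the fit, an adjusted p under 0.05, each library left out, the summed TPM of the family, and words of 38 bases.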

Additional observations from a re-analysis of the deposited data

Results flagged for a closer look

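The study already names Fn1 among genes induced by IL-4 and more highly expressed at low than at high collagen. The IL-4 effect on Fn1 differed between the gels. On the log2(TPM + 1) scale it was lower in high-collagen gels than in low-collagen gels by -1.91 ± 0.15 (SE), an interaction with an adjusted p of 0.015 by limma, and with IL-4 the mean of Fn1 was 577 TPM in low-collagen and 363 TPM in high-collagen gels. None of the kallikreins tested met the same criterion, and groups of 2 libraries are too small to look for libraries that stand apart.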

How the results depend on the processing

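All differences here are on the log2(TPM + 1) scale unless another pseudocount is named. For Klk1b11 and the shared words, 71 alternatives other than leaving out a library kept the direction and the side of the threshold or stayed within the spread, 14 moved further and 2 lost the call. Between the gels with IL-4, the Klk1b11 difference of 0.27 was no longer called under median-ratio rescaling (0.19) or at an adjusted p under 0.05 (0.27), and leaving out each library gave 0.17 to 0.37. For the descriptions with IL-4, rescaling moved the low-collagen IL-4 effect to 2.51 and the difference from plates to 4.81 in low- and 5.01 in high-collagen gels, and a pseudocount of 0.1 moved the low-collagen difference from plates to 4.61. The mean level of Klk1b11 moved by rescaling to 9.96 TPM on plates with IL-4 and 308 TPM in low-collagen gels with IL-4. The summed family stood at 11.7 TPM on plates with IL-4, 59.2 TPM in untreated low-collagen gels and 64.8 TPM in untreated high-collagen gels. With words of 38 bases the shares shared with other genes were 33.8% for Klk1, 27.5% for Klk1b1, 22.3% for Klk1b11, 47.0% for Klk1b24 and 30.6% for Klk1b27. At an adjusted p under 0.05, the calls of Klk1b1 without IL-4 and Klk1b27 with IL-4 between the gels were lost as well. The Klk1b1 difference between gels with IL-4 ranged from -0.029 (without replicate 1 of the low-collagen gels) to 0.33. The cause of these changes was not tested. Replicate numbers did not pair the libraries: the deviations of same-numbered libraries correlated between -0.12 and 0.11 over 15 pairs of conditions, over 0.1 in 1, and with the replicate block the Klk1b11 differences stayed at 0.27 with IL-4 and 0.05 without, and it changed no call of the 3 kallikreins. Without a filter, Klk1 entered the fit only through its gel libraries and could not be lower than on plates, where it was listed at 0. Its difference of 0.30 between untreated low-collagen gels and plates is therefore a description. The 5 TPM filter left Klk1b27 untested in all comparisons and Klk1b1 in those with plates. A depth that is unknown limits statements on Klk1, Klk1b24 and the other copies listed near 0.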
